A study of Mus musculus with 4 samples.

Results

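Gata6-positive Timd4-negative large macrophages of the mouse peritoneal cavity were selected from single-cell RNA counts by UMI limits on a few genes, a UMI being 1 counted transcript molecule. A member had at least 500 detected genes, at least 5000 UMIs, at most 10% mitochondrial UMIs, at least 3 UMIs of Adgre1, at least 1 of Gata6, 0 of Timd4, at most 1 of Folr2, 0 of Cd79a and of the Cd3 chains, fewer than 5 of the cell cycle genes Mki67, Top2a, Birc5 and Ube2c together, and less than 0.3% of its UMIs from Chil3. The rule found 2289 members among 26811 barcodes. The barcodes carry 1 of 4 suffixes, taken here as libraries 1 to 4, and the members numbered 107, 545, 756 and 881 in them. They were set beside the cells of the same library with at least 3 Timd4 UMIs, called Timd4-high cells below, which passed the same limits except those on Gata6 and Folr2 and numbered 101, 426, 1938 and 2533.

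The study sorted viable F4/80-positive peritoneal cells, F4/80 being the protein of Adgre1, from mice aged 24 weeks. Its 4 groups, with 1 sample each, were C57BL/6 mice on a normal diet, Apoe-/- mice on a normal diet, Apoe-/- mice fed a high-fat diet (21% fat and 0.15% cholesterol) for 20 weeks from an age of 4 weeks, and Apoe-/- mice given the same diet and then 3 mg of anti-CVI-mAb, the collagen VI antibody of the study's title. Control mice received the same 200 µL of PBS into the peritoneum, and mice with a disrupted Apoe, the gene of a cholesterol carrier, are a model of atherosclerosis. The labels do not say which suffix is which sample, and genotype, diet and antibody were therefore not compared. With 1 library per group there is no replicate and no test, the values describe these libraries, and intervals in parentheses are exact 95% intervals that cover counting error only.

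Gata6 is the transcription factor that sets the identity of large peritoneal macrophages, and its loss in mice depletes and alters these cells. Timd4 encodes TIM-4, a receptor for phosphatidylserine on dying cells, and is known to mark macrophages that have resided in a tissue for long. Macrophages that enter the cavity later from blood monocytes can take up the Gata6 programme and are known to lack Timd4 at first, often with more MHC class II, the proteins that present peptides to helper T cells.

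Library 1 stood apart from the others. Its members had 573 CPM (UMIs per 1000000) of Xist, the RNA that silences an X chromosome in female cells, against 0, 0 and 0.0869 CPM in libraries 2, 3 and 4. Ddx3y, a gene of the Y chromosome, was at 0 CPM in its members and at 63.5, 47.8 and 50.7 CPM in the others. The design text states male sex for the diet-fed Apoe-/- mice only. Library 1 also held the fewest members, so its ratios have the widest intervals. The members' median depth was 10352, 13925, 14120.5 and 12903 UMIs in libraries 1 to 4, and that of Timd4-high cells 9315, 14044, 14681.5 and 13759 UMIs. Of 26759 distinct barcode sequences, 52 occurred in more than 1 library, and 6 members carried such a sequence.

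The members held the defining transcripts of large peritoneal macrophages. Prg4, which encodes the lubricant proteoglycan lubricin, was at 4228, 2796, 3801 and 3514 CPM in libraries 1 to 4 and at 3939, 3499, 4281 and 4132 CPM in Timd4-high cells. Alox15, a lipoxygenase of lipid mediator synthesis, was at 3452, 2818, 2807 and 2753 CPM against 2569, 2389, 2704 and 2637 CPM. Icam2, an adhesion ligand, was at 331, 771, 714 and 669 CPM against 276, 622, 663 and 687 CPM. All 3 were abundant in both cell sets, and the rule used none of them, so the label holds for these markers. Prg4 was lower in the members in libraries 2, 3 and 4 only, and Alox15 was higher in all 4. Prg4 was counted in other cells too: after thinning to 5000 UMIs it had a UMI in 38.9, 30.0, 36.8 and 40.4% of the B cells of libraries 1 to 4, where B cells are barcodes with at least 2 Cd79a and 0 Adgre1 UMIs. Macrophages with 0 Gata6 and 0 Timd4 UMIs that met the other limits held all 3 markers. After thinning, Prg4 had a UMI in 88.8 to 99.8% of them, Alox15 in 85.6 to 97.4% and Icam2 in 62.5 to 90.5%. Presence of these markers thus does not by itself set the members apart from those cells.

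Among the Gata6-positive macrophages of each library, most cells had either no Timd4 UMI or several. Cells with 0 Timd4 UMIs made up 68.3% (62.7 to 73.6) of 300 such cells in library 1 and 69.8% (67.1 to 72.5) of 1143 in library 2. In library 3 they were 28.9% (27.2 to 30.6) of 2797, and in library 4 27.8% (26.3 to 29.3) of 3315. Cells with exactly 1 Timd4 UMI were between 3.41 and 7.62% in the 4 libraries, and those with exactly 2 between 1.92 and 7.76%. Timd4-negative cells were thus the larger share in libraries 1 and 2 and the smaller in libraries 3 and 4. After the limit on Folr2, a folate receptor gene of long-resident macrophages, the members were 35.7, 47.7, 27.0 and 26.6% of Gata6-positive cells, so Folr2 moved library 1 most.

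**Figure D1:**
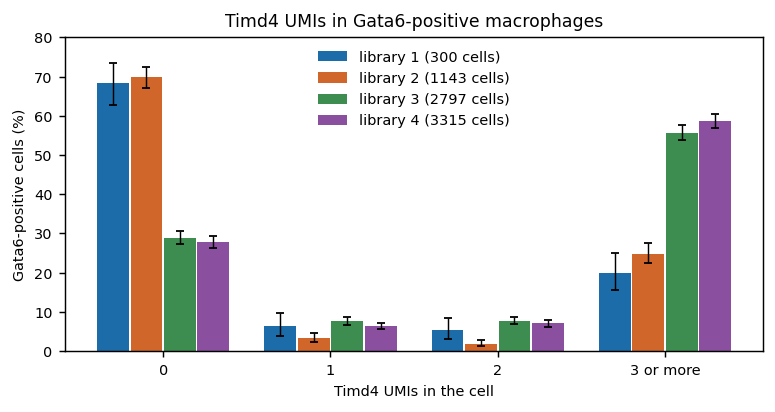
Share of Gata6-positive macrophages (y axis, %) by their number of Timd4 UMIs (x axis) in libraries 1 to 4, with exact 95% intervals for counting error. Cells with 1 or 2 Timd4 UMIs are few, and cells with 0 are 68.3 and 69.8% in libraries 1 and 2 but 28.9 and 27.8% in libraries 3 and 4.

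Both limits that define the members act on counts of a few molecules. Timd4-high cells had a median of 5, 7, 6 and 6 Timd4 UMIs. Members with a single Gata6 UMI were 42.1, 51.6, 38.0 and 38.4% of all members in libraries 1 to 4. After each member was thinned to 5000 UMIs, Gata6 was still seen in 71.0, 53.9, 61.6 and 62.8% of them. A count of 0 Gata6 UMIs therefore does not show that a cell lacks the transcript. The Timd4 limit alone kept out 4551 cells and the Gata6 limit alone 1516. Chil3, the gene of a secreted chitinase-like protein, alone kept out 554, of which 413 were in library 2, and the Folr2 limit alone kept out 444.

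Marco, Cdkn2a, Vsig4, Cxcl13 and Wnt2 led the genes that were lower in the members. The contrast was read over 4620 genes with at least 20 CPM in the higher set in each library, and a gene passed the rule of size with a ratio of at least 1.5-fold of 1 sign in each of the 4 libraries. Of these genes 20 (0.433%) were lower and 4 (0.0866%) higher in the members. Among them Timd4, Folr2 and Chil3 had been used to choose the cells, which leaves 18 lower and 3 higher. Since Timd4 chose both sets and Gata6 and Folr2 the members, the counts describe the contrast and support nothing further. In single libraries 5.32, 4.83, 1.1 and 0.996% of genes were lower and 3.48, 0.649, 0.325 and 0.303% higher at this size. On the log2 scale the median over the 4620 genes was -0.03, -0.09, -0.08 and -0.06. Over libraries 2, 3 and 4 alone, 22 of 4754 genes (0.463%) were lower and 6 (0.126%) higher, which adds Abca1, Tgfb2, F13a1 and Apoc4.

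Marco, a class A scavenger receptor for bacteria and modified lipoproteins, had the widest difference outside the rule besides Cdkn2a. It was at 25.2, 84.1, 159 and 98.8 CPM in the members of libraries 1 to 4 and at 575, 713, 493 and 431 CPM in Timd4-high cells. The sets did not overlap, since the highest member value lies below the lowest Timd4-high value. The share of all genes without overlap is not given here, so neither this gap nor those named below can be weighed against it. The log2 ratios were -4.49 (-5.11 to -3.96), -3.08 (-3.20 to -2.97), -1.64 (-1.71 to -1.56) and -2.13 (-2.21 to -2.04). Fewer members than Timd4-high cells had the transcript: in cells thinned to 5000 UMIs, Marco had a UMI in 8.41, 7.52, 18.5 and 13.7% of members against 39.6, 41.8, 48.1 and 38.0% of Timd4-high cells. Whole cells gave 11.2, 13.03, 30.0 and 22.1% of members. In B cells, which should lack Marco, the thinned share was 3.37, 1.83, 5.56 and 4.37%, at median depths of 10535, 7932, 7465 and 7829 UMIs. The source of those UMIs, and their part in the members' share, was not tested. The Marco gene occupies chr1:120474538-120505024 of GRCm38, the mm10 assembly, minus strand.

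Cdkn2a, whose products p16 and p19ARF hold back the cell cycle and accumulate in ageing cells, was nearly absent from members of libraries 1 and 2. Its level was 1.803, 2.89, 21.8 and 26.1 CPM in the members and 25.7, 64.6, 92.2 and 130 CPM in Timd4-high cells. The first value rests on 2 UMIs, and its log2 ratio was -3.54 (-6.95 to -1.84). The others were -4.45 (-5.16 to -3.88), -2.08 (-2.28 to -1.89) and -2.32 (-2.49 to -2.15). Of the 107 members of library 1, 1 had a Cdkn2a UMI in whole cells (0.935%) and 0 after thinning, where 3 counts would be 2.80%. In libraries 2, 3 and 4 the thinned share was 0.917, 4.76 and 8.40%, against 14.8, 20.2 and 29.2% of Timd4-high cells and at most 0.694% of B cells. The gene occupies chr4:89274471-89294653, minus strand, with 2 annotated start windows in RefSeq, and 3′ counts do not separate its transcripts. Of the other kinase inhibitor genes read, Cdkn1a (p21) was at 37.9, 102, 103 and 67.0 CPM against 87.0, 139, 116 and 70.4 CPM. Only Cdkn2a of this list of 7 genes, 4 of them read, passed the rule of size.

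Vsig4, a complement receptor of resident macrophages that binds C3b, was at 214, 33.3, 271 and 171 CPM in the members and at 1058, 226, 522 and 417 CPM in Timd4-high cells. Its log2 ratios were -2.31, -2.76, -0.95 and -1.28. Cxcl13, a chemokine that draws B cells and is a product of large peritoneal macrophages, was at 893, 357, 2896 and 1108 CPM against 3262, 1490, 4406 and 2669 CPM. It was lower within each library, but the members of library 3 exceeded the Timd4-high cells of libraries 2 and 4. Wnt2, a secreted Wnt ligand, was at 38.8, 3.52, 29.3 and 38.5 CPM against 150, 54.2, 75.8 and 72.6 CPM. Serpinb6a, an intracellular protease inhibitor, was at 116, 65.8, 123 and 98.7 CPM against 401, 288, 267 and 248 CPM, with no overlap between the sets. The lower genes also held Plxdc2, Cald1 (caldesmon), Abcg1 (a cholesterol exporter), Slc7a2 (an arginine transporter), Cd63 (a lysosomal tetraspanin), Vat1 and the pheromone receptor family gene Vmn2r26, with median log2 ratios between -1.34 and -0.98. For 15 of the 18 lower genes the ratio was lowest in library 2.

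**Figure D2:**
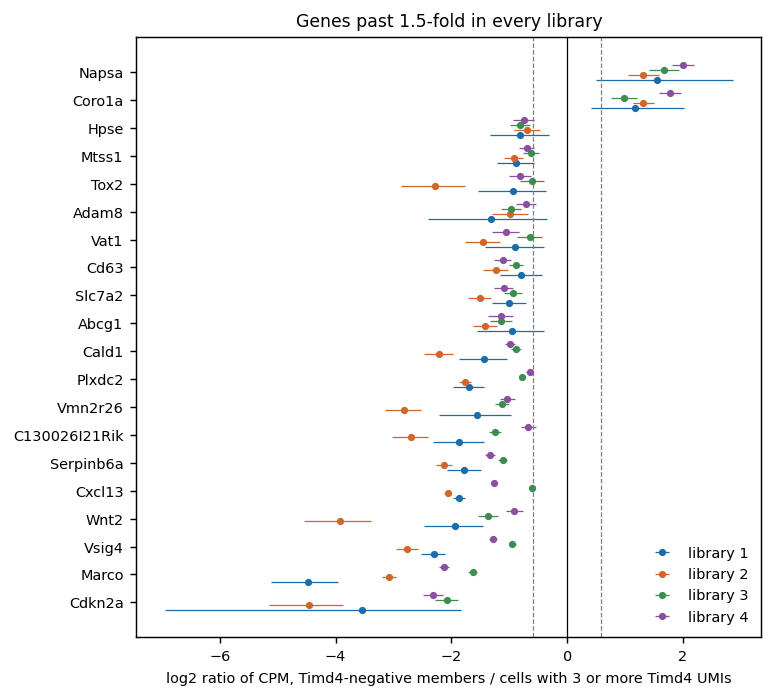
Log2 ratio of CPM between members and Timd4-high cells (x axis) for genes past 1.5-fold in every library (y axis), without the rule genes, with exact 95% intervals for counting error. Cdkn2a and Marco lie farthest to the left, and Napsa and Coro1a lie to the right.

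The genes higher in the members were fewer. Napsa, an aspartic protease gene, was at 27.0, 61.6, 24.8 and 41.4 CPM in the members against 8.89, 24.7, 7.79 and 10.3 CPM in Timd4-high cells. Coro1a, an actin regulator of leukocytes, was at 45.1, 127, 27.2 and 39.7 CPM against 19.8, 51.0, 13.7 and 11.6 CPM. Both were higher within all 4 libraries. Across libraries the ranges of the sets overlapped for Coro1a, and for Napsa the lowest member value, 24.8 CPM, lay just above the highest of the Timd4-high cells, 24.7 CPM. Napsa, Coro1a and the class II genes are also abundant in B cells. After thinning, 95.8 to 97.1% of B cells had a Napsa UMI and 98.9 to 100% a Coro1a UMI. Coro1a also had a UMI in 97.2 to 100% of T cells, barcodes with at least 2 Cd3 UMIs and 0 of Adgre1 and Cd79a. The summed B cell markers were no higher in the members of libraries 1 and 2 (105 against 164 CPM, and 16.5 against 20.0 CPM). They were 7.51 against 6.85 CPM and 6.00 against 5.98 CPM in libraries 3 and 4. Cd79a, which is among these markers, was held at 0 in both sets by the rule. Among the members with at least 2 Gata6 UMIs, Napsa was still higher by 0.97, 1.29, 1.46 and 1.89 on the log2 scale but fell short of 20 CPM in library 1, Coro1a missed the rule at 0.35 in library 1, and the apolipoprotein gene Apoc4 was the 1 gene that passed as higher. Without library 2 or without library 3, 7 genes passed as higher.

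MHC class II presentation was higher as a group. Of 9 genes of the list read, 7 were higher in every library and 0 lower, where 9.2% of all genes were higher in every library at any size and 29.5% lower. Cd74, the class II invariant chain, was at 1708, 5281, 1405 and 3953 CPM against 862, 3667, 841 and 1746 CPM. The summed level of H2-Aa, H2-Ab1, H2-Eb1 and Cd74 was 3423, 10516, 2601 and 7690 CPM in the members and 1806, 7773, 1639 and 3443 CPM in Timd4-high cells. The log2 ratios are thus 0.92 (0.84 to 1.00), 0.44 (0.42 to 0.45), 0.67 (0.65 to 0.69) and 1.16 (1.15 to 1.17). The level differed more among libraries than between the sets, as the members of library 3 held less class II than the Timd4-high cells of libraries 2 and 4. Against Timd4-high cells that also met the Gata6 and Folr2 limits, 42, 234, 1488 and 1862 cells, the ratios were 3.49, 0.72, 0.77 and 1.24. For the 62, 264, 469 and 543 members with at least 2 Gata6 UMIs against all Timd4-high cells they were 0.24, 0.21, 0.28 and 1.08, smaller in each library and least so in library 4.

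That closer comparison added class II genes and genes of the monocyte list to the higher side. Of 4607 genes read, 13 (0.282%) were higher and 21 (0.456%) lower by the same rule. Among the 13 were Napsa, Coro1a, Chil3, H2-Eb1, H2-Ab1, Cd74, Retnla, F13a1, Aif1, Tmsb10 and Igfbp4. Retnla, a secreted resistin-like protein of monocyte-derived and alternatively activated macrophages, was at 2527, 461, 1053 and 615 CPM in the members against 430, 92.1, 203 and 270 CPM in these cells. Against all Timd4-high cells its log2 ratios were -0.18, -0.89, 1.09 and 0.11, so the direction for Retnla depends on the Gata6 and Folr2 limits. Retnla was also counted widely in library 1, where 64.8% of B cells had a UMI of it after thinning, and the source of those UMIs was not tested. F13a1, a coagulation factor subunit found in monocytes, was at 668, 311, 256 and 177 CPM against 381, 71.2, 102 and 68.5 CPM. Lyve1, the hyaluronan receptor named in the study's title, was at 48.7, 2.26, 1.67 and 4.52 CPM in the members and at 307, 19.0, 15.6 and 19.2 CPM in all Timd4-high cells. Beside the closer set its log2 ratios were 0.28, -0.52, -2.20 and -1.14, and in libraries 1 and 2 the interval spans 0.

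The large macrophage programme was lower for about as many genes as not. Library 1 differed from the rest against all Timd4-high cells, but not against the closer set. Of 23 identity genes read, 12 were lower in every library and 2 higher, and without the rule genes Gata6 and Adgre1 these were 11 and 1 of 21, beside 29.5 and 9.2% of all genes. The list's median log2 ratio was -0.03, -0.62, -0.26 and -0.31, and its summed level in library 1 was 40954 CPM in the members against 40021 CPM. Alox15 was the higher gene. Against the closer set 16 of the 23 were lower and 1 higher in every library, where 23.9% of all genes were lower and 9.59% higher. The list's median log2 ratio there was -0.46, -0.92, -0.35 and -0.39, so library 1 lay near libraries 3 and 4. The values that follow are again beside all Timd4-high cells. Serpinb2, an inhibitor of plasminogen activators, was at 123, 148, 362 and 386 CPM against 249, 297, 503 and 535 CPM. Tgfb2, a transforming growth factor, was at 535, 78.8, 243 and 238 CPM against 611, 273, 446 and 402 CPM. Garnl3, a GTPase-activating protein family gene, was at 46.0, 43.3, 271 and 267 CPM against 89.9, 155, 323 and 320 CPM. Selp, the adhesion molecule P-selectin, was at 396, 178, 357 and 283 CPM against 405, 274, 455 and 373 CPM. For 10 of these 11 genes the ratio was lowest in library 2, and in library 1 that of Selp was -0.03 on the log2 scale. F5, F10, Thbs1, Cd9 and Saa3, also of the list, did not keep 1 direction over the libraries.

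Cells just outside the Timd4 limit were read beside the members. In Gata6-positive cells that met the other limits of the rule, Folr2 included, thinned to 5000 UMIs, Marco in library 3 was at 148 CPM (136 to 161) at 0 Timd4 UMIs, 329 (295 to 366) at 1, 409.6 (372 to 450.4) at 2 and 447 (432 to 463) at 3 or more. In library 4 it was at 97.6, 229, 242 and 362 CPM, and in library 2 at 89.2, 725, 718 and 769 CPM. In libraries 3 and 4 the cells with 1 Timd4 UMI lay between both ends, and in library 2, with few such cells, they were near the upper end. Cd74 went the other way, at 1392, 974, 749 and 739.5 CPM in library 3 and 3806, 2535, 1688 and 1572 CPM in library 4. In library 2 it was at 5423, 4206, 4506 and 2849 CPM. Cdkn2a in library 4 was at 29.3, 95.7, 84.8 and 140 CPM. The cells with 1 or 2 Timd4 UMIs that also met the Folr2 limit numbered 13 and 10 in library 1 and 32 and 17 in library 2, so the steps rest mainly on libraries 3 and 4, with 207 to 231 cells at each.

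**Figure D3:**
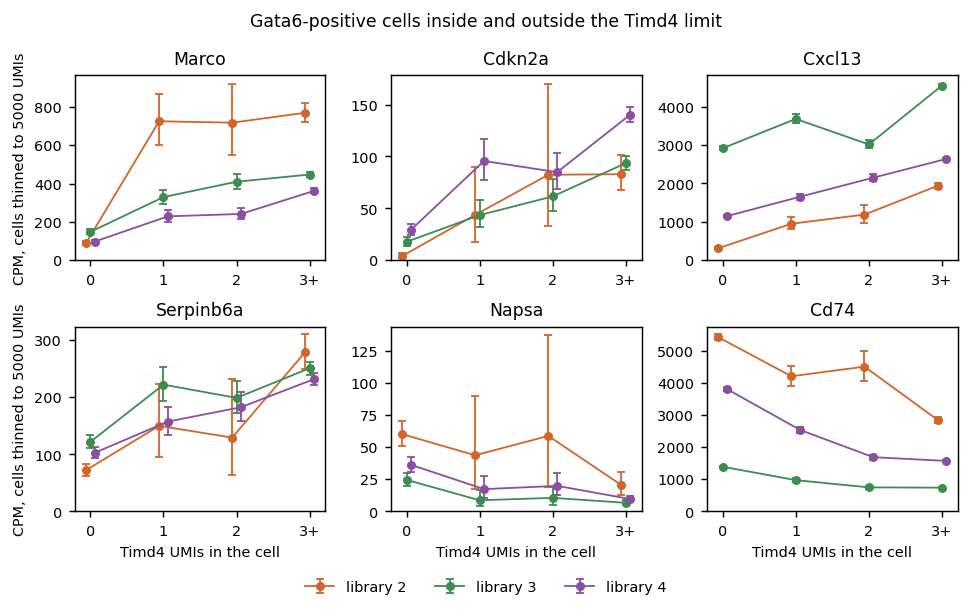
CPM in Gata6-positive cells within the other limits of the rule, thinned to 5000 UMIs (y axis), by Timd4 UMIs in the whole cell (x axis) in libraries 2, 3 and 4, with exact Poisson 95% intervals; library 1 is left out because it has 13 and 10 cells at 1 and 2 UMIs. Marco in library 2 goes from 89.2 to 725 CPM between 0 and 1 UMI, and Cd74 is highest at 0 UMIs in each library.

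For several genes the members lay between the Timd4-high cells and double-negative macrophages, those with neither transcript counted. Double-negative cells met every other limit of the rule and had 0 Gata6 and 0 Timd4 UMIs, numbered 160, 578, 348 and 430, and were chosen as a comparison after their values had been seen. Cd74 was at 7099, 7579, 2244 and 5892 CPM in them, above the members in each library. Prg4 was at 2288, 2457, 3321 and 2967 CPM and Selp at 205, 144, 296 and 228 CPM, below the members in each library. For Marco the double-negative cells were close to the members, at 22.4, 38.2, 130.04 and 106 CPM, with library 4 slightly above its members. Ccr2, the receptor that brings monocytes out of the marrow, was at 625, 144, 55.2 and 90.3 CPM in double-negative cells, 43.3, 85.6, 13.2 and 50.3 CPM in the members and 32.6, 35.0, 3.61 and 5.02 CPM in Timd4-high cells. The share of all genes for which the members lay between is not given here. The order was the same in all 4 libraries for Ccr2, Cd74, Garnl3, Selp and Cxcl13. It did not hold for Prg4 in library 1, highest in the members, or for Fabp5, a fatty acid binding protein gene, which had a UMI after thinning in 48.6, 76.5, 70.9 and 75.0% of members, 28.7, 59.6, 61.4 and 67.4% of Timd4-high cells and 29.4, 69.6, 64.4 and 63.7% of double-negative cells. How many double-negative cells hold Gata6 transcripts that were not counted was not tested.

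**Figure D4:**
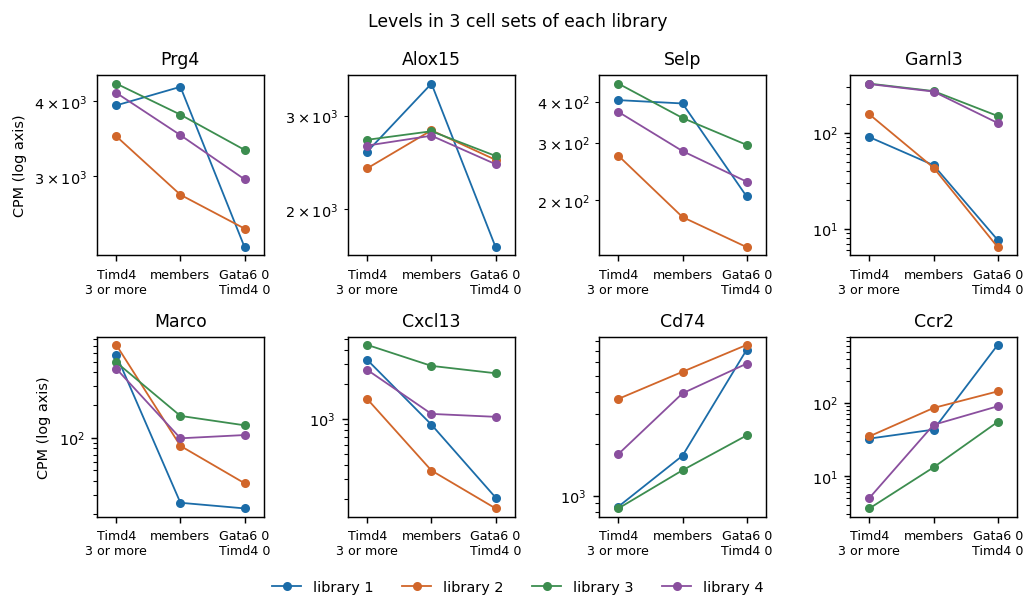
CPM on a log axis (y axis) of 8 genes in Timd4-high cells, members and cells with 0 Gata6 and 0 Timd4 UMIs (x axis), 1 line per library. From left to right Cd74 and Ccr2 are higher and Garnl3 and Cxcl13 lower at each step in every library, while Marco in library 4 is at 98.8 CPM in members and 106 CPM in double-negative cells.

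The members were not uniform among themselves. After thinning, the sum of the 4 class II transcripts had a median of 5, 45, 4 and 22 UMIs per member in libraries 1 to 4 and a 90th percentile of 44.4, 116.6, 34.5 and 91.0 UMIs. The tenth of members with most class II held 47.0, 27.5, 53.6 and 35.1% of it. In Timd4-high cells the medians were 3, 31, 3 and 11 UMIs and the 90th percentiles 18.0, 82.0, 21.0 and 35.0. The difference in medians was small in libraries 1 and 3, and the upper end of the members differed more. Members at 0 class II UMIs were 9.35, 2.57, 19.6 and 0.454%, against 15.8, 1.64, 20.5 and 2.05% of Timd4-high cells.

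Members in which a Ccr2 transcript was counted held more class II than the others. A Ccr2 UMI was seen after thinning in 12, 113, 25 and 82 members, which is 11.2, 20.7, 3.31 and 9.31%, against 4.95, 7.04, 0.980 and 1.30% of Timd4-high cells. Whole cells gave 15.9, 27.0, 5.29 and 13.5% of members. In B cells the thinned share was 2.53, 1.60, 0.694 and 0.546%. T cells, defined as for Coro1a above, had a Ccr2 UMI after thinning in 64.6, 69.2, 44.4 and 67.2%. Ccr2 is thus not particular to monocytes here, and the part of T cell transcripts in the members' share was not tested. The split reads the same cells as the values below, so these describe how genes lie together and test nothing. Cd74 was at 4850, 8127, 6864 and 10119.5 CPM in members with a Ccr2 UMI and at 1244, 4715, 1204 and 3158 CPM in those without. Retnla was higher with Ccr2 by 0.90, 1.33, 2.48 and 1.58 on the log2 scale. Prg4 was lower by log2 ratios of -0.34, -0.27, -0.45 and -0.56, Alox15 by -0.29, -0.28, -0.26 and -0.38 and Serpinb2 by -1.03, -0.93, -0.94 and -1.53. Cxcl13 was at 667, 8.85, 1152 and 31.7 CPM with Ccr2 and at 964, 392, 2975 and 1263 CPM without, so the gap was wide in libraries 2 and 4 and narrow in library 1. Members with Ccr2 thus held Prg4 and Alox15 at a lower level, though both remained abundant.

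**Figure D5:**
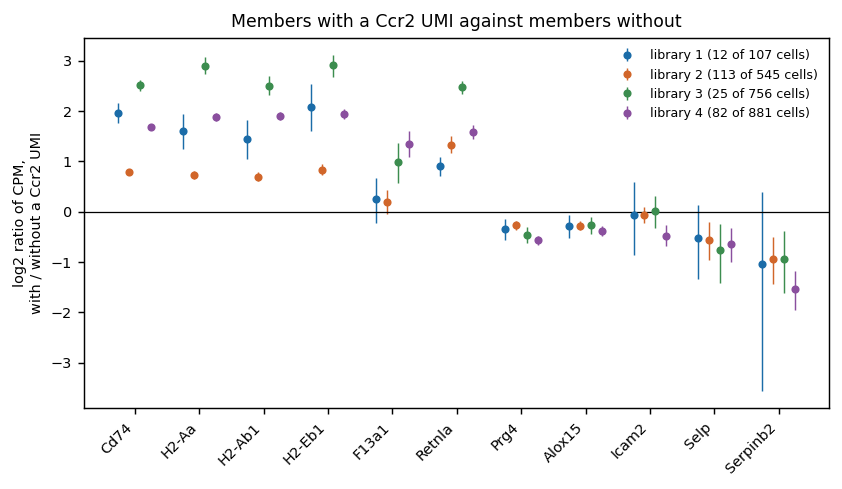
Log2 ratio of CPM between members with and without a Ccr2 UMI (y axis) for 11 genes (x axis), cells thinned to 5000 UMIs, with exact 95% intervals for counting error. The class II genes and Retnla lie above 0 in all 4 libraries, and Prg4, Alox15 and Selp lie below 0.

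The higher class II level of the members was not confined to cells with a counted Ccr2 UMI. A cell without a counted Ccr2 UMI can still hold the transcript. The part of such cells in the values below was not tested. Without every cell that had a Ccr2 UMI in either set, the log2 ratio of summed class II to Timd4-high cells was 0.85 (0.75 to 0.95), 0.33 (0.31 to 0.35), 0.31 (0.29 to 0.34) and 0.79 (0.78 to 0.81). Without cells with a Ccr2 or a Napsa UMI it was 0.61 (0.50 to 0.72), 0.19 (0.16 to 0.21), 0.19 (0.17 to 0.22) and 0.73 (0.72 to 0.75). The difference was smaller in each library and of the same sign. At the other end, the 9, 41, 140 and 121 members that had a Marco UMI after thinning resembled Timd4-high cells in 2 ways. Their Cd74 was lower than in the other members, by log2 ratios of -1.27, -0.65, -0.42 and -0.62. Their Cxcl13 was higher by 1.87, 1.81, 1.00 and 0.61.

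Among genes of cholesterol handling, the exporters Abcg1 and Abca1 were lower in the members of each library. Of 10 genes of cholesterol efflux and liver X receptor targets read, 4 were lower in every library and 0 higher, beside 29.5 and 9.2% of all genes. Abcg1, which moves cholesterol to high-density lipoprotein, was at 37.9, 36.1, 24.9 and 16.6 CPM against 74.1, 96.5, 54.7 and 36.8 CPM. Abca1, which moves cholesterol to apolipoprotein A-I, was at 173, 92.0, 85.7 and 68.9 CPM against 256, 209, 136 and 113 CPM. Mylip, which marks the LDL receptor for degradation, had log2 ratios of -1.14, -0.62, -0.27 and -0.50, and Npc1, a lysosomal cholesterol transporter, -0.61, -0.38, -0.32 and -0.59. Abcg1 was at 41.7 CPM in the closer set of library 1, so against that set its log2 ratio there was -0.17 and the gene missed the rule. Among lipid-laden macrophage genes, 5 of 12 were lower and 1 higher in every library, beside the same shares. The higher one was Fabp5, at 244, 864, 593 and 662 CPM against 90.9, 386, 387 and 497 CPM. Cd63, Ctsb, Ctsd, Ctsl and Lipa, all lysosomal, were the lower ones, with Ctsd (cathepsin D) at log2 ratios of -0.39, -0.78, -0.63 and -0.57.

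Lists of receptors for uptake and adhesion were read in the same way, and their differences were smaller in size. Of 8 Fc receptor and signalling genes read, 6 were lower in every library and 0 higher. The clearest was Fcgr4, a receptor for IgG, at 160, 245, 191 and 138 CPM in the members against 221, 427, 297 and 182 CPM. Of 15 adhesion genes, 6 were lower and 1 was higher. Itgb2, the beta chain of the leukocyte integrins, was at 754, 646, 728 and 635 CPM against 989, 952, 914 and 857 CPM, and the sets did not overlap. Of 11 efferocytosis genes, the machinery for taking up dying cells, 5 were lower and 0 higher. Mertk, a receptor of that group, was at 162, 109, 95.3 and 66.6 CPM against 162, 138, 109 and 69.2 CPM, so it was level in library 1. Beside these counts, 29.5% of all genes were lower in every library, and no gene of these 3 lists passed 1.5-fold in all 4. Against the closer set, 4 of 9 Fc receptor genes, 8 of 15 adhesion genes and 5 of 10 efferocytosis genes were lower in every library. Higher in every library there were 1, 1 and 0, beside 23.9% of all genes lower and 9.59% higher. In that comparison 1 adhesion gene passed 1.5-fold as higher. The Fc receptor list's median log2 ratio there was -0.002, -0.14, -0.08 and -0.05.

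Counts in the other groups are small and stand beside 29.5% of all genes lower and 9.2% higher in every library. Of 12 complement genes read, 3 were lower and 1 higher in every library, and C1qa, a chain of the complement starter C1q, was at 3979, 4143, 5334 and 4476 CPM against 4693, 4043, 5231 and 4921 CPM. Of 17 lineage transcription factors, 5 were lower and 3 higher. Maf, a factor of resident macrophages, was at 267, 103, 74.8 and 82.5 CPM against 529, 173, 117 and 113 CPM, while Irf8, a factor of the monocyte and dendritic lineages, was at 204, 110, 70.2 and 120 CPM against 154, 74.9, 59.4 and 99.2 CPM. The NF-kB list had 2 of 5 genes lower and 0 higher, and the type I interferon list 2 of 4 lower and 0 higher. The sterol synthesis list had 0 in either direction, with 3 of its 16 genes read. In the eicosanoid list 4 of 9 were lower, among them Alox5 at log2 ratios of -0.47, -0.43, -0.36 and -0.32, and 1, Alox15, was higher.

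The members differed widely among libraries. Of 3308 genes at 50 CPM or more in the highest library, 76 (2.3%) differed at least 4-fold between the highest and the lowest, and 40 of these were highest in library 1. Over libraries 2, 3 and 4 alone, 19 of 2619 did. Apoe had the widest range, at 15.3, 812, 760 and 34169 CPM in the members. It was thus counted in every library although 3 of the 4 groups are Apoe-/-, and the labels do not say which part of the gene that allele lacks. Timd4-high cells gave 24.7, 546, 632 and 26733 CPM in the same libraries, so the range went with the library and not with the set. Fkbp5, a glucocorticoid-induced chaperone, was at 106, 31.2, 101 and 8.43 CPM. Ptgis, the prostacyclin synthase, was at 79.3, 47.7, 272 and 315 CPM in the members against 245, 112, 277 and 324 CPM, so members and Timd4-high cells were close in libraries 3 and 4 and apart in libraries 1 and 2. Which group each library belongs to is not known, so these ranges cannot be told apart from genotype, diet, antibody, sex or handling.

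Markers of lymphocytes, stromal cells and granulocytes other than neutrophils were few in the members outside library 1, while 2 lists that share genes with macrophages were not. The rule held Cd79a and the Cd3 chains at 0 in both cell sets, so low sums of lymphocyte markers were partly fixed by it. The sum of 7 T and NK cell markers was 0.901, 0.629, 0.371 and 3.74 CPM in the members. In Timd4-high cells it was 0.988, 0.475, 1.37 and 0.382 CPM, so library 4 was higher in the members. The 8 mesothelial and stromal markers summed to at most 0.126 CPM, with at least 7 of the 8 at 0 in each library. Eosinophil markers summed to at most 0.629 CPM. The 7 dendritic cell markers, without Napsa, summed to 21.6, 0.629, 7.79 and 6.43 CPM, below the 70.2, 4.59, 8.93 and 9.14 CPM of Timd4-high cells. The dendritic cell gene list of 12 genes, which includes Napsa, summed to 73.0, 84.7, 40.5 and 56.3 CPM in the members. In Timd4-high cells that list was at 92.9, 44.7, 23.8 and 27.2 CPM, so it was higher in the members of libraries 2, 3 and 4. Library 1 held the most B cell and mast cell transcripts, at 105 and 57.7 CPM in the members against 164 and 47.4 CPM in Timd4-high cells. The monocyte-derived small macrophage markers summed to 2775, 847, 1196 and 789 CPM in the members against 3110, 1178, 645 and 677 CPM, with Retnla as the largest. The platelet list summed to 1123, 1713, 4542 and 3301 CPM against 2004, 2312, 4123 and 4513 CPM, nearly all of it Pf4, a chemokine gene that macrophages also express. Neutrophil markers were at 188, 116, 103 and 126 CPM against 126, 91.5, 157 and 103 CPM. Their part in the differences above was not tested.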

How the data were processed

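Raw UMI counts, as the authors deposited them, covered 26811 barcodes and 31253 genes in a single matrix. Per the file headers it comes from Cell Ranger 5.0.1. CASAVA 1.8, Seurat and mm10 also stand in the submitters' processing notes. Read counting and gene annotation were not given in the sources used here. In all, the 4 libraries held 40321459, 74067998, 73429015 and 78083803 UMIs.

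UMIs were summed per cell set and library and scaled to 1000000 (CPM). Ratios were taken as log2 of CPM with a prior count of 0.5, and read for genes with at least 20 CPM in the higher set. Thinning drew 5000 UMIs per cell at random, and no cell was shallower. Exact 95% intervals are conditional binomial for ratios, Poisson for sums and Clopper-Pearson for shares. No p-value was taken over cells, which share their library. No doublet caller was run: the limits on lymphocyte and cell cycle genes stand in for one, and cells above 25000 UMIs were left out as an alternative. Genes named are the 15 highest and 15 lowest by median ratio among those past the rule of size, the 8 with the widest range over libraries, the rule and marker genes, and members of 23 gene lists. Some genes that meet these criteria are not reported here, though the counts include them. Members and lists were chosen with earlier results of these data known. Positions are from GENCODE M21 on GRCm38. Calculations used Python 3.11.15, numpy 2.4.6 and scipy 1.17.1 and were tested on simulated data.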

Additional observations from a re-analysis of the deposited data

How the results depend on the processing

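The 4 genes higher and 20 lower in the members were recounted under other settings. Higher genes numbered 13 against Timd4-high cells that also met the Gata6 and Folr2 limits, 1 among members with at least 2 Gata6 UMIs, 10 with a minimum of 5 CPM, 1 with a minimum of 50 CPM and 1 at 2-fold. They numbered 7 without library 2 and 7 without library 3, and between 3 and 6 under the other settings. Lower genes numbered 55 with a minimum of 5 CPM, 13 with 50 CPM and 6 at 2-fold, and between 15 and 29 under the other settings. The minimum, the fold and the leaving out of a library or of the rule genes change these counts by construction. For the rest the cause was not tested. Named genes differed in how often they passed. Of 13 settings read gene by gene, Marco passed in 13, Cdkn2a, Vsig4 and Wnt2 in 12 and Napsa in 11. Coro1a passed in 7 of them and Cxcl13 in 6. Of 285 ratios of single genes under the settings that can change a ratio, 242 stayed within the counting interval (the median of its bounds over libraries), 42 moved outside it and 1 changed sign, Folr2 at 0.19 where the comparison cells were limited in Folr2 too. Genes that differed 4-fold among libraries numbered 76, and 97 after thinning. The second thinning, the exclusion of shared barcodes and that of the rule genes were chosen after seeing the data. No paired analysis was possible because the groups of the labels have 1 sample each and the results come from no test; both cell sets were read within each library, and were chosen by counts of the genes contrasted.

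The limits are those of counts. Depth leaves Gata6 at 1 UMI in many members, library 1 has 107 members, and genes under 20 CPM, among them most cell cycle and sterol genes, were not read.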
